A study of Mus musculus with 28 samples.

Results

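KAP1-independent H3K9me3 regions are the stretches of chromatin marked by histone H3 lysine 9 trimethylation that the submitters counted apart from those depending on KAP1, and they numbered 572 of 15017 H3K9me3 regions (3.81%) and of 88984 regions in all 6 deposited region sets. The members were taken as every line of the count file for this set. How the set was separated from the 14445 KAP1-dependent regions is not given in the sources used here, and the histone mark after knockdown was not analysed here. All libraries came from J1 mouse embryonic stem cells of the strain 129S4/SvJae, kept in 2i medium with LIF and collected on day 5. For RNA and 5hmC the cells were transduced with a lentiviral vector and selected with puromycin. The vector was empty (shEmpty) or carried a hairpin against Kap1 (shKap1). The titles of the ChIP libraries of the histone marks H3K4me3 and H3K27me3 name no vector. For 5hmC, wild-type cells with either vector gave 1 immunoprecipitated and 1 input library each that could be assigned. RNA was measured in wild-type cells (WT), in a Dnmt1, Dnmt3a, Dnmt3b knockout line (DNMT TKO) and in a Tet1, Tet2, Tet3 knockout line (TET TKO), each with both vectors, in 3, 3 and 2 libraries per vector. Each genotype was 1 line, so genotype and line cannot be told apart. The study's methods describe the RNA replicates as coming from independent experiments.

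H3K9me3 marks constitutive heterochromatin. At retrotransposons in embryonic stem cells it is laid down mostly through KRAB zinc finger proteins, which bind a DNA sequence and recruit KAP1 (the product of Trim28) and the methyltransferase SETDB1. At pericentromeric major satellite and at telomeres it is laid down mainly by the methyltransferases SUV39H1 and SUV39H2, and TET enzymes oxidise 5-methylcytosine, mostly at CpG, to 5-hydroxymethylcytosine (5hmC).

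The results turn on a few kinds of sequence, shown here from the reference genome (mm9, plus strand, 5′ to 3′). Capitals mark CpG. The first is one unit from the start of the array at chr9:3000001-3038399, the region with most reads in every library, where the sequence matched itself best when shifted by 234 bases and the region held 164.1 such units. The next is the minor satellite copy at chr6:103599042-103599288. The last are the middle 200 bases of the regions with the highest and the lowest 5hmC over input in shEmpty, and the 200 bases richest in CpG of the intracisternal A particle (IAP) provirus whose 5hmC over input differed most between shKap1 and shEmpty.
Major satellite unit, chr9:3000001-3000234: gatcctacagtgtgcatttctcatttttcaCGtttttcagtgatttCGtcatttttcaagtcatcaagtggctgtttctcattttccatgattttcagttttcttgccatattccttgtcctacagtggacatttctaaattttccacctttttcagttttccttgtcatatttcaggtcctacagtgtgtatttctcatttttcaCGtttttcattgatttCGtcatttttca
Minor satellite, chr6:103599042-103599288: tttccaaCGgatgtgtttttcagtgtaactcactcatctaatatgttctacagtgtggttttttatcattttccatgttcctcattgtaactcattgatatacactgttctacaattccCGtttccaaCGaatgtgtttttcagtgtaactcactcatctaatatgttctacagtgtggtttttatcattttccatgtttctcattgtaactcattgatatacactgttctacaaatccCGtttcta
Highest 5hmC over input, chr14:21074400-21074599: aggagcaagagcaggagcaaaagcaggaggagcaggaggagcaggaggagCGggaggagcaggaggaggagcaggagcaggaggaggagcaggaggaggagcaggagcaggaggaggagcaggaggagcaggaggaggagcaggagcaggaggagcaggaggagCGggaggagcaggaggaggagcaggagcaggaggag
Lowest 5hmC over input, chr12:116872100-116872299: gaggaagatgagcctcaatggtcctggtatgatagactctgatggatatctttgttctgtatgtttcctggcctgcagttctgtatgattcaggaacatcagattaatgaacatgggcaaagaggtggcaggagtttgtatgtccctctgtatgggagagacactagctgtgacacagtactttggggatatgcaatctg
IAP provirus, chr1:197147551-197147750: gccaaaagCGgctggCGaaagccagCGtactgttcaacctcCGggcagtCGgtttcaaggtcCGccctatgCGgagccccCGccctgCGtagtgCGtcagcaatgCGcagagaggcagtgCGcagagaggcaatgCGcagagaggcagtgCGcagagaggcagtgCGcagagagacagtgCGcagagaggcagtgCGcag
The major and minor satellite stretches held 4 CpG each, the lowest stretch 0, the highest 2 and the IAP stretch, which was chosen for its CpG, 17.

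The regions were unevenly spread over the chromosomes. Chromosome 8 carried most, 75 regions or 5.69 per 10 Mb, followed by chromosome 6 with 58 (3.88 per 10 Mb), chromosome 7 with 52 (3.41) and chromosome X with 48 (2.88). Chromosomes 11 and 15 carried 10 and 9 regions, 0.82 and 0.87 per 10 Mb. KAP1-dependent regions were also densest on chromosomes 8 and 6, at 92.4 and 86.7 per 10 Mb, against 40.1 on chromosome 11.

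**Figure D1:**
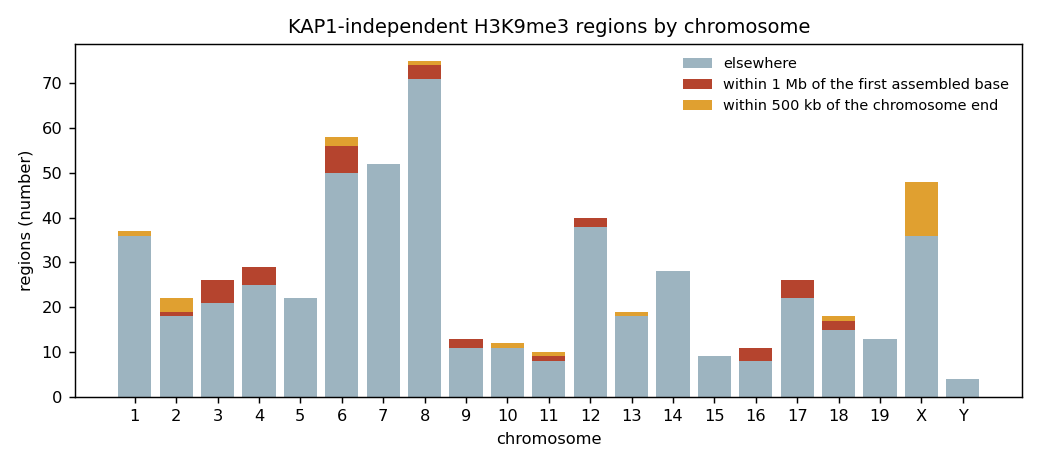
Number of KAP1-independent H3K9me3 regions (y axis) on each chromosome (x axis), split by whether a region starts within 1 Mb of the first assembled base, lies within 500 kb of the chromosome end, or lies elsewhere. Chromosome 8 holds the most, 75 of 572.

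Mouse chromosomes are telocentric, and in mm9 each autosome begins with 3 Mb of unsequenced bases that stand for the centromere. Within 1 Mb of the first assembled base lay 33 regions (5.77%), against 2.15% of KAP1-dependent regions. They fell on 11 chromosomes, 3 of them started at the first assembled base itself, and only 2 were led by satellite, the array on chromosome 9 and chr11:3000001-3006999, whereas 12 were led by no repeat class, 9 by ERVK, 5 by simple repeats, 3 by ERV1 and 2 by L1. At the other chromosome end, 23 regions (4.02%) lay within 500 kb, against 0.997% of KAP1-dependent regions, and 12 of these 23 formed a group at chrX:166504401-166650199, at the end of the X chromosome where the pseudoautosomal region lies.

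Regions also lay close together. With gaps of at most 500 kb, 328 regions fell in 97 groups of 2 or more, 171 of them in 27 groups of 4 or more, and 244 stood alone. The largest group held 19 regions at chrX:120390601-122607999, 83.4% repeats by bases, of which 12 overlapped a KAP1 region. The group at chr12:115928601-117053999, in the immunoglobulin heavy chain locus with Ighv1-67, held 14 regions, of which 10 overlapped H3K27me3 and 0 overlapped KAP1. The group at the end of the X chromosome was 3.15% repeats, and a group of 6 at chr7:71223201-71634199 was 11.4% repeats.

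Repeats covered 71.4% of the 2741628 bases of the set, less than the 87.2% of KAP1-dependent bases. ERVK, the class of mouse endogenous retroviruses that includes IAP and ETn, covered 30.9% against 53.0%, and L1, the active mouse retrotransposon family, 14.0% against 21.3%. ERV1, the class of murine leukaemia virus-like proviruses, covered 16.2% against 6.35%, satellites 2.35% against 0.242%, and simple or low-complexity sequence 2.81% against 0.895%. Without the largest array, satellites covered 0.963%.

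Naming each region by the class with most of its bases, if that was at least 20%, 191 regions were led by ERVK (33.4%, against 48.9% of KAP1-dependent regions), 93 by ERV1 (16.3% against 7.28%), 93 by L1 (16.3% against 33.4%), 55 by simple or low-complexity sequence (9.62% against 1.09%) and 19 by satellite (3.32% against 0.235%). No class reached that share in 98 regions (17.1% against 4.33%). The single element leading most often was the full provirus of RLTR6-int between RLTR6B LTRs, in 44 regions, before IAPEz between IAPLTR1a LTRs in 24, L1Md_F2 in 21, and MMERVK10C between RLTR10C LTRs in 14. Major satellite (GSAT_MM) led 10 and minor satellite (SYNREP_MM) led 9.

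A pair of adjacent copies of TTAGGG, the telomere hexamer, on either strand occurred in 25 regions (4.37%), against 0.235% of KAP1-dependent regions. Cut into windows of 200 bases, 0.365% of the windows held it, against 0.0307% in KAP1-dependent regions and 0.0104% in the genome. TGCCGC, the motif of the imprint regulator ZFP57, occurred on either strand in 37.6% of the regions and 40.5% of KAP1-dependent regions. These shares count a match anywhere in a region and are not corrected for length, whose medians were 3399 and 1799 bases. A match is a description of the letters and not of binding.

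The regions were longer than KAP1-dependent ones, with a median of 3399 bases (quartiles 1399 and 5799) against 1799, and reached 133599 bases at chr8:19905001-20038599, a tract led by L1_Mus2. Their median CpG content was 13.0 per kb against 19.0. KAP1 itself, mapped as a separate set, overlapped 317 regions (55.4%) by at least 1 base, against 69.0% of KAP1-dependent regions, and 209 at 25% reciprocal overlap. The name of the set thus does not describe absence of KAP1 binding. H3K27me3, the Polycomb mark, overlapped 92 (16.1%) against 1.57%, H3K4me3, the mark of active gene starts, 20 (3.50%) against 2.88%, and none of the 32 imprinting control regions overlapped. With the H3K27me3 peaks of replicate 1 alone 142 regions overlapped, and with those of replicate 2 alone 143.

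The 4 assigned hMeDIP libraries held 4590132 to 8817570 reads over all region sets, and a small part of the set took most of the reads. The major satellite array chr9:3000001-3038399 had 961291 reads in input shEmpty, 1697050 in input shKap1, 2806449 in 5hmC shEmpty and 1985186 in 5hmC shKap1. These were 20.9% (95% Wilson interval 20.9 to 21.0), 26.0% (26.0 to 26.1), 35.9% (35.8 to 35.9) and 22.5% (22.5 to 22.5) of all reads over the region sets. Of the reads over all region sets, the array thus took more of 5hmC than of input in shEmpty and less in shKap1, by intervals that cover counting error only. The direction in shKap1 depends on the total: the median 5hmC over input of the 10 major satellite regions there, on the log2 scale defined below, was -0.179 with all region sets and 0.713 with H3K4me3 regions as the total.

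All 572 regions together took 26.9% and 32.5% of the input reads and 42.9% and 28.6% of the 5hmC reads, shEmpty first. Of the reads in the set, the array took 77.7%, 80.0%, 83.5% and 78.6% in input shEmpty, input shKap1, 5hmC shEmpty and 5hmC shKap1. The 25 regions with telomere repeat took 0.94% and 1.06% of the input reads and 3.83% and 2.97% of the 5hmC reads, whereas the 9 minor satellite regions took 1.45% and 1.81% of the input reads and 0.61% and 0.62% of the 5hmC reads. These shares are of the reads over all region sets, and their direction can change with another total.

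**Figure D2:**
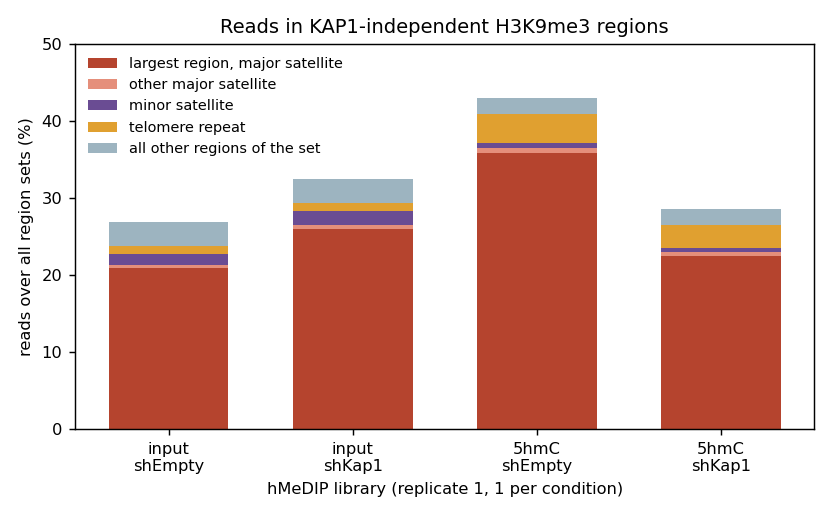
Percent of reads over all region sets (y axis) that fell in KAP1-independent H3K9me3 regions, in the 4 assigned hMeDIP libraries (x axis), split into the largest region, other major satellite, minor satellite, telomere repeat and all other regions. The largest region takes 20.9, 26.0, 35.9 and 22.5% from left to right.

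These shares come from reads placed on an assembly that holds a small part of the satellite and telomere arrays. Input reads per kb over both conditions reached 430266 in the minor satellite copy chr6:103599001-103599399 and 69229 in the chromosome 9 array, against a median of 73.9 over the set and 42.9 over KAP1-dependent regions. At least 10 times the KAP1-dependent median was found in 54 regions (9.44%), against 0.305% of KAP1-dependent regions, and at least 100 times in 12 (2.10%) against 0.048%. The 5hmC values below are therefore given over the input of the same region.

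5hmC over input is the log2 of the share of a region in the 5hmC reads over its share in the input reads, with 1 read added to each count, and all 572 regions passed the minimum of 10 input reads. With 1 library per condition no test was possible and all 5hmC values are descriptions. In shEmpty the median was -0.64 (quartiles -1.26 and -0.01), near the median of all regions, -0.59, and below that of KAP1-dependent regions, -0.18. At least 2-fold above input were 58 regions (10.1%), where 7.06% of all regions were, and at least 2-fold below were 193 (33.7%), where 36.9% were.

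The satellites differed. Regions led by major satellite had a median of 0.52 and all 10 lay between 0.35 and 0.87, whereas those led by minor satellite had a median of -0.85 and lay between -1.63 and -0.43. Another total shifts every region by the same amount, so the gap between both kinds stays, but with H3K4me3 regions as the total the minor satellite median in shEmpty was 0.432 and that of major satellite 1.80. The chromosome 9 array had 0.78 and chr13:77578001-77578399, a short major satellite copy, 0.87, whereas the minor satellite copy on chromosome 6 had -1.26, with 61800 input and 43888 5hmC reads in shEmpty.

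The telomere repeat was the most enriched group, with a median of 2.02 and 19 of 25 regions at least 2-fold above input. This was not particular to the set: KAP1-dependent regions with tandem TTAGGG had a median of 1.86, with 24 of 34 at least 2-fold above input. The region at the end of chromosome 2, 88 bases from its last base and with 83 adjacent pairs of TTAGGG, overlapping pairs counted, had 11761 input and 84333 5hmC reads in shEmpty, or 2.07. The 4 regions that ended a chromosome lay between 2.02 and 2.09. Telomere repeat holds no CpG in its unit, and of the 23 regions without a single CpG, 12 were at least 2-fold above input and 9 at least 2-fold below. The assigned hMeDIP libraries include none from TET TKO cells. At telomere and simple repeats, 5hmC and capture by the antibody without 5hmC therefore cannot be told apart.

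The highest value, 3.10, was at chr14:21073001-21075999, a (GGA)n tract with 43 input and 640 5hmC reads, followed by 2.94 at chr3:104831401-104832199, a (CCAA)n tract without CpG that lies in the gene Cttnbp2nl and had 27 and 365 reads. The next 3, chr12:117916601-117916999, chr12:10968401-10969599 and chr8:12130801-12134799, at 2.80, 2.76 and 2.76, were GA-rich, (GGA)n and CT-rich. All 5 highest were thus simple or low-complexity tracts, and the 37 such regions without telomere repeat spread from -3.68 to 3.10 around a median of 0.48. Such KAP1-dependent regions had a median of 1.54 (n = 140).

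The lowest value, -5.29, was at chr12:116871601-116872799, an old L1 copy (Lx4B) with 68 input and 2 5hmC reads, and it was followed by chr7:71627001-71628799 without any CpG at -4.68 (74 and 4 reads). Medians were -0.78 for ERVK, -1.28 for L1 and -0.20 for ERV1, whereas the 7 SINE-led regions had 1.31, with 5 of them at least 2-fold above input. Of these 7, 4 also held tandem TTAGGG (median 1.41), and the 3 without it had a median of 1.16. These signs depend on the total: with H3K4me3 regions as the total the medians were 0.498 for ERVK, -0.002 for L1 and 1.08 for ERV1, and without the largest array ERV1 had 0.105. The 33 pericentromeric regions had a median of -0.92 and 0 of them reached 2 times the input, and chr17:3024801-3034199, led by no class, had -3.22 with 735 input and 134 5hmC reads.

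**Figure D3:**
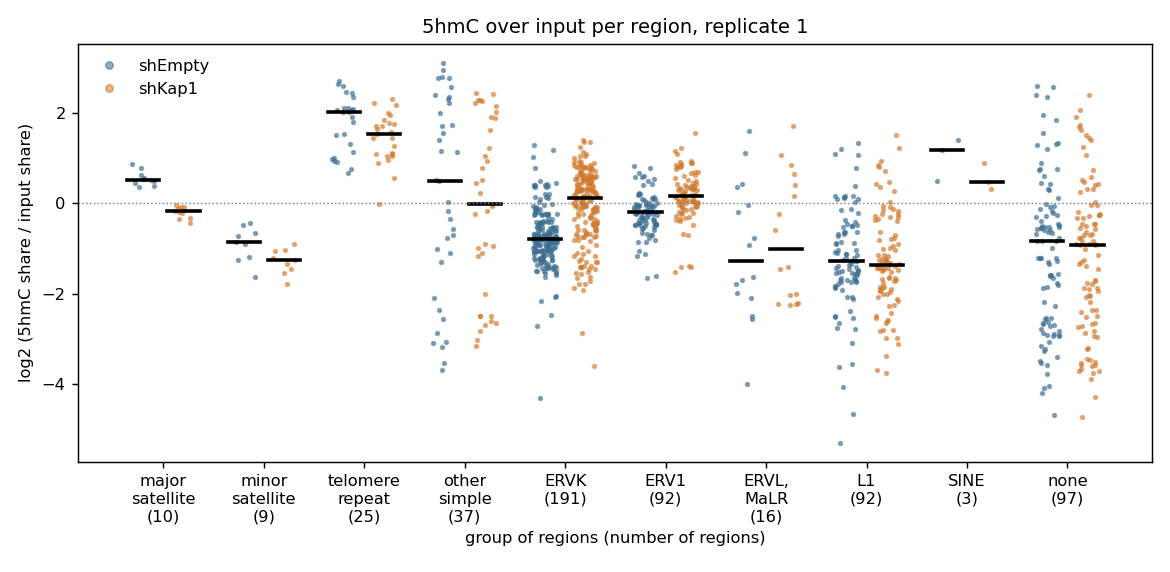
Log2 of 5hmC over input (y axis) for each region in shEmpty and shKap1, by group of regions (x axis, number of regions in brackets), with black lines at the medians. Telomere repeat has a median of 2.02 in shEmpty and major satellite 0.52, and the ERVK median moves from -0.78 to 0.12.

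After Kap1 knockdown, 5hmC over input was higher at ERVK regions and lower at satellites, as a difference between 1 library of each kind. The median difference, shKap1 minus shEmpty, was 0.18 over the set, against 0.46 over all regions and 0.66 over KAP1-dependent regions. It was at least 2-fold higher at 76 regions (13.3%), where 23.4% of all regions were, and at least 2-fold lower at 9 (1.57%), where 2.86% were. The 95% counting interval lay above 0 at 184 regions and below 0 at 75 of the 572. In KAP1-dependent regions it lay above 0 at 5923 and below 0 at 252 of 14390. Here and below, the position of an interval against 0 holds for all region sets as the total.

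The scale of this difference depends on the reads used as the total. The median of all regions was 0.46 with all region sets as the total, and it moved by -0.37 without the largest array, by -0.39 with H3K4me3 regions and by -0.65 with KAP1-dependent regions as the total. The set's median became -0.19, -0.21 and -0.46. Relative to the median of all regions the values are the same under each total: the set stood at -0.27, ERVK regions at 0.27, ERV1 at -0.05, L1 at -0.55, regions with no leading class at -0.61, minor satellite at -0.75, telomere repeat at -0.79 and major satellite at -1.15. ERVK stayed above 0 under each of these totals, with 0.08 as its lowest. ERV1 had 0.405 with all region sets but 0.036, 0.016 and -0.24 under the other totals, in the order above, and ERVL and MaLR regions (n = 16) had 0.336 and then -0.032, -0.052 and -0.308. The medians of satellite, telomere, L1 and unclassed regions were below 0 under each total.

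Of the 76 regions at least 2-fold higher, 64 were led by ERVK. IAP-led regions had a median difference of 1.09 (quartiles 0.74 and 1.24, n = 95 regions), 53 of them at least 2-fold, and 85 had an interval above 0. MMERVK10C-led regions stood at 0.34 (n = 33), ETn-led regions at 0.44 (n = 11), RLTR6-led regions, which are ERV1, at 0.38 (n = 56), and these 3 medians lay below that of all regions. Without the largest array, with H3K4me3 regions and with KAP1-dependent regions as the total, IAP-led regions kept a median above 0 (0.717, 0.697 and 0.441), whereas MMERVK10C-led regions had -0.024, -0.044 and -0.30, ETn-led regions 0.07, 0.05 and -0.207, and RLTR6-led regions 0.006, -0.013 and -0.27. With all region sets as the total, IAP-led KAP1-dependent regions had 0.95 (n = 4593) and ETn-led ones 0.95 (n = 506). MMERVK10C-led ones had 0.71 (n = 543) and RLTR6-led ones 0.39 (n = 254). The IAP at chr1:197146001-197150999, 44433 bases from the end of chromosome 1 and with 113 CpG, went from 97 input and 70 5hmC reads in shEmpty to 128 and 285 in shKap1, a difference of 1.95 (interval 1.42 to 2.48). The IAP at chr5:47331201-47336999 differed by 1.94 (1.46 to 2.42) and the pericentromeric ETn at chr8:3829601-3835599 by 1.69 (1.19 to 2.18). The largest difference of all, 2.32 at the Lx4B copy on chromosome 12, rested on 2 and 14 5hmC reads and had an interval of 0.48 to 4.17.

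All 10 major satellite regions were lower, with a median difference of -0.69 and every interval below 0. The chromosome 9 array went from 0.78 to -0.21, chr13:77578001-77578399 from 0.87 to -0.11 (26811 5hmC reads of 8584 input, then 19112 of 15303), and chr11:3000001-3006999 from 0.52 to -0.17. At the 4 chromosome ends with telomere repeat all intervals also lay below 0, with a median difference of -0.56. All 25 regions with tandem TTAGGG had a median of -0.33, and the 34 such KAP1-dependent regions had -0.40. The 1 KAP1-dependent region led by major satellite had -0.70. The lowest difference among regions with at least 30 input reads, -1.81 (-3.26 to -0.36) at the (CAGTG)n tract chr2:65633001-65634599, rested on 15 and 7 5hmC reads.

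The 317 regions that overlapped KAP1 had a median difference of 0.48 and held 67 of the 76 regions at least 2-fold higher, and the other 255 had -0.17. Under the other totals, in the same order, the medians were 0.117, 0.097 and -0.16 with KAP1 and -0.535, -0.555 and -0.811 without, so the sign with KAP1 depends on the total and the gap does not. Within ERVK the medians were 0.83 with KAP1 (n = 154) and 0.08 without (n = 37), within L1 0.04 (n = 29) and -0.19 (n = 64), and among regions with no leading class 0.06 (n = 26) and -0.23 (n = 72), whereas within ERV1 they were 0.39 (n = 78) and 0.44 (n = 15). KAP1-dependent regions stood at 0.81 with KAP1 and 0.23 without.

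CpG content and read depth moved with the difference too, and their part in it was not tested. In regions with at most 8.34 CpG per kb the median difference was -0.12, between 8.35 and 18.9 it was 0.34, and from 19.0 it was 0.56. Across the 572 regions, which share the same 4 libraries, Spearman's rho of the difference was 0.40 with CpG per kb, 0.42 with length and -0.49 with input reads per kb.

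**Figure D4:**
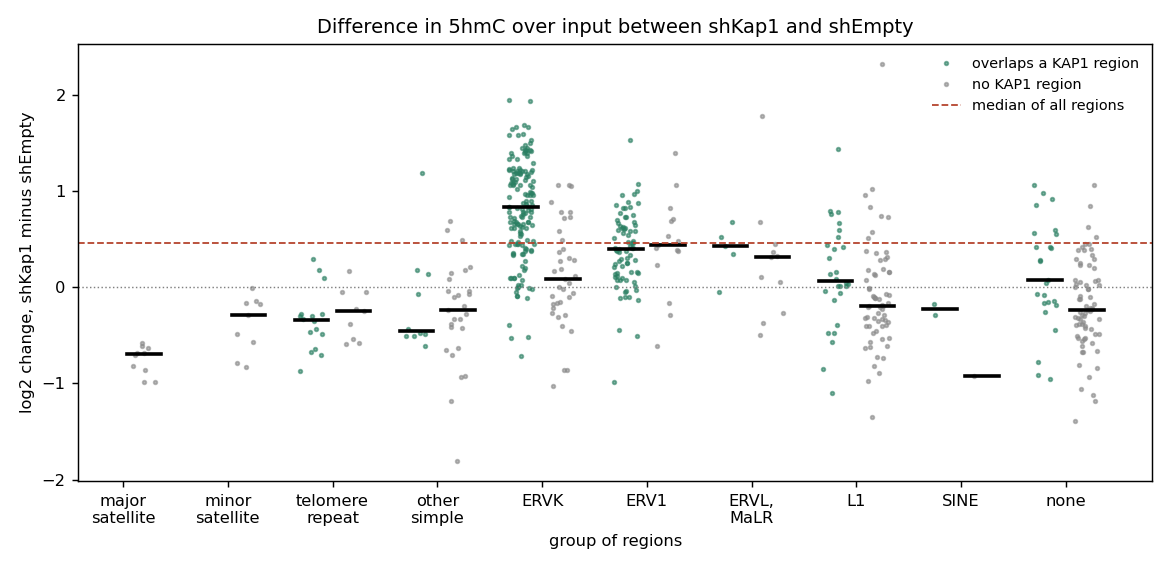
Log2 difference in 5hmC over input, shKap1 minus shEmpty (y axis), for each region by group (x axis), with regions that overlap a KAP1 region in green and others in grey, black lines at the medians and the median of all regions, 0.46, as a dashed line. ERVK regions have a median of 0.83 with KAP1 and 0.08 without, and all 10 major satellite regions lie below 0.

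RNA was read out for the genes and repeat integrants that overlap the regions. Library sizes were 18108431 to 29373696 gene reads and 1032281 to 1989713 repeat reads, all unique and stranded, and CPM (the usual per-million unit) below are scaled to the gene reads of each library. Trim28, the targeted gene, had 1991, 1639 and 1627 CPM in WT shEmpty and 190, 156 and 149 in WT shKap1, with log2 fold change -3.41 (SE 0.16, edgeR adjusted p = 2.2e-09). In DNMT TKO it had 2086, 1819 and 1701 and then 327, 448 and 506 CPM (-2.13, SE 0.15, adjusted p = 2.5e-07), and in TET TKO 1772 and 1899 and then 163 and 168 (-3.47, SE 0.20, adjusted p = 3.6e-08). Knockdown was thus less deep in DNMT TKO than in WT, by 1.28 (edgeR adjusted p = 0.0008), and its part in the differences between those knockdown effects was not tested. The difference between TET TKO and WT was -0.06 (edgeR adjusted p = 0.93).

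Major satellite RNA, summed over all GSAT_MM copies, had 15.1, 14.2 and 15.7 CPM in WT shEmpty and 28.7, 22.3 and 23.5 in WT shKap1. In DNMT TKO it had 5.38, 4.52 and 5.01 CPM in shEmpty and 48.9, 49.0 and 34.6 in shKap1, and in TET TKO 2.40 and 3.83 in shEmpty and 155 and 111 in shKap1. The groups did not overlap: without knockdown both knockout lines lay below WT, and with knockdown both lay above it. In edgeR the log2 fold change of knockdown was 0.72 (SE 0.17, adjusted p = 0.0022, below the 2-fold needed for a call) in WT, 3.15 (SE 0.19, adjusted p = 7.1e-10) in DNMT TKO and 5.42 (SE 0.25, adjusted p = 1.1e-10) in TET TKO.

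The knockdown effect on major satellite differed from that in WT by 2.43 (SE 0.25, edgeR adjusted p = 1e-05) in DNMT TKO and by 4.69 (SE 0.29, adjusted p = 1.2e-07) in TET TKO. Leaving out any library gave 2.30 to 2.53 and 4.39 to 5.08. Without knockdown, DNMT TKO was lower than WT by 1.60 on the log2 scale (adjusted p = 7.7e-06) and TET TKO by 2.27 (adjusted p = 3.2e-06), 2 comparisons that share the WT shEmpty libraries. Of 3116 repeat families, 45.6%, 49.4% and 49.9% were called in the WT, DNMT TKO and TET TKO knockdowns, 16.1% and 9.88% between knockout lines and WT, and 7.32% and 6.35% for the differences from the WT effect.

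Of the 11655 major satellite reads, 1928 lay in 8 copies inside the regions and 9727 in 24 copies outside, led by chr2:98506702-98507489 with 6198. The chromosome 9 array had 1.17, 1.35 and 1.13 CPM in WT shEmpty and 3.04, 1.91 and 1.97 in WT shKap1, 0.559, 0.483 and 0.655 and then 3.65, 4.75 and 4.67 in DNMT TKO, and 0.211 and 0.563 and then 16.6 and 13.9 in TET TKO. Its rise was called in DNMT TKO (log2 2.94, edgeR adjusted p = 1.8e-31) and TET TKO (5.29, adjusted p = 8e-64), each larger than in WT by 2.03 (adjusted p = 9.7e-07) and 4.38 (adjusted p = 9.8e-26). Lower levels without knockdown were called in DNMT TKO (-1.11, adjusted p = 0.00081) and TET TKO (-1.66, adjusted p = 2e-05), but without TET TKO shEmpty replicate 1 the latter had adjusted p = 0.13, and without DNMT TKO shEmpty replicate 2 the former was under 2-fold.

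Several annotated genes lie wholly inside the array. Gm16869, which is on the same strand as the array and shares its reads, had 0.777, 0.64 and 0.602 CPM in WT shEmpty and 1.15, 1.04 and 1.23 in WT shKap1, which was not called, but rose by 2.51 (edgeR adjusted p = 3.7e-06) in DNMT TKO and 5.04 (adjusted p = 2.2e-08) in TET TKO. Gm10718, on the other strand, had 1, 0 and 0 reads in WT shEmpty and 3, 5 and 3 in WT shKap1, a ratio of 13.4 (interval 1.95 to 578). That rise was called (edgeR adjusted p = 0.017) but not without WT shEmpty replicate 2 (0.068), WT shEmpty replicate 3 (0.067) or WT shKap1 replicate 2 (0.054). A short major satellite copy at chr12:75904825-75905492 had 0, 0 and 1 reads in WT shEmpty and 36, 47 and 52 in WT shKap1, a ratio of 165 (interval 29.1 to 6560). It had 0 reads in all shEmpty libraries of both knockout lines, and was at least 127-fold higher in DNMT TKO shKap1 (163, 95 and 96 reads) and at least 62-fold higher in TET TKO shKap1 (70 and 69), with 3 counts over the group as the floor. Transcripts were selected by polyA tail and only unique reads were counted, so these values cover a part of the satellite RNA.

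Other satellite families differed by less than 2-fold or on few reads. MMSAT4, with 2581813 reads the most abundant, differed by 0.43, 0.21 and 0.38 in the 3 knockdowns on the log2 scale. Minor satellite had 58 reads in all 16 libraries and rose in the TET TKO knockdown (2.72, edgeR adjusted p = 0.0062), with 3 and 2 reads before and 19 and 7 after, a call that was lost without TET TKO shKap1 replicate 1 (1.93, edgeR adjusted p = 0.13). The subtelomeric family SUBTEL_sa, with 93 reads, rose in the DNMT TKO knockdown (1.63, edgeR adjusted p = 0.014), but not without DNMT TKO shEmpty replicate 3 (1.30, adjusted p = 0.078). Before knockdown it was lower in DNMT TKO than in WT (-1.79, edgeR adjusted p = 0.015). Means were 0.081 CPM in DNMT TKO shEmpty, 0.261 in DNMT TKO shKap1 and 0.280 in WT shEmpty. MurSAT1, with 30 reads, had 0 in every shEmpty library. It was called up in WT shKap1 (3, 2 and 3 reads, at least 3.26-fold, edgeR adjusted p = 0.0081). In TET TKO shKap1 it had 12 and 10 reads (at least 9.82-fold, adjusted p = 0.00037).

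The regions overlapped 2174 integrants of LINE, SINE, LTR, DNA and satellite classes, of which 1126 had no read, 1048 had at least 1, and 439 had the 16 reads needed for a test. In the WT knockdown 216 of the 439 rose (49.2%, where 12.2% of all integrants did) and 1 fell (2.04% of all), in DNMT TKO 215 rose (49.0%, against 15.0%) and 3 fell (0.936% of all), and in TET TKO 227 rose (51.7%, against 14.6%) and 2 fell (0.967% of all). Integrants enter the test only with reads, so silent copies that became active are over-represented among the 439. Their median log2 changes were 2.71, 2.52 and 3.10, against 0.23, 0.27 and 0.33 over all integrants.

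ERVK integrants made up most of the rises, with 134, 149 and 142 of 190 called in WT, DNMT TKO and TET TKO and medians of 4.70, 5.43 and 5.39. These were 70.5%, 78.4% and 74.7%, where 12.2%, 15.0% and 14.6% of all integrants rose. The latter shares are over integrants of all classes, and ERVK integrants outside the regions were not counted apart. ERV1 had 33, 26 and 30 of 64 (51.6%, 40.6% and 46.9%), LINE 24, 25 and 32 of 73 (32.9%, 34.2% and 43.8%), and ERVL and MaLR 10, 6 and 11 of 25. SINE integrants, with 13, 7 and 9 of 71 (18.3%, 9.86% and 12.7%), lay above the share of all integrants in WT and below it in both knockout lines. Satellite copies had 1, 2 and 3 of 9. The knockdown effect differed from that in WT at 16 of the 439 in DNMT TKO, where 1.88% of all integrants differed in either direction. By sign it was larger at 6 (1.37%) and smaller at 10 (2.28%). In TET TKO it differed at 8 of the 439, where 1.12% of all integrants differed in either direction. By sign it was larger at 5 (1.14%) and smaller at 3 (0.683%). The shares of all integrants cover both signs, and in each line both signs together exceed that share.

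**Figure D5:**
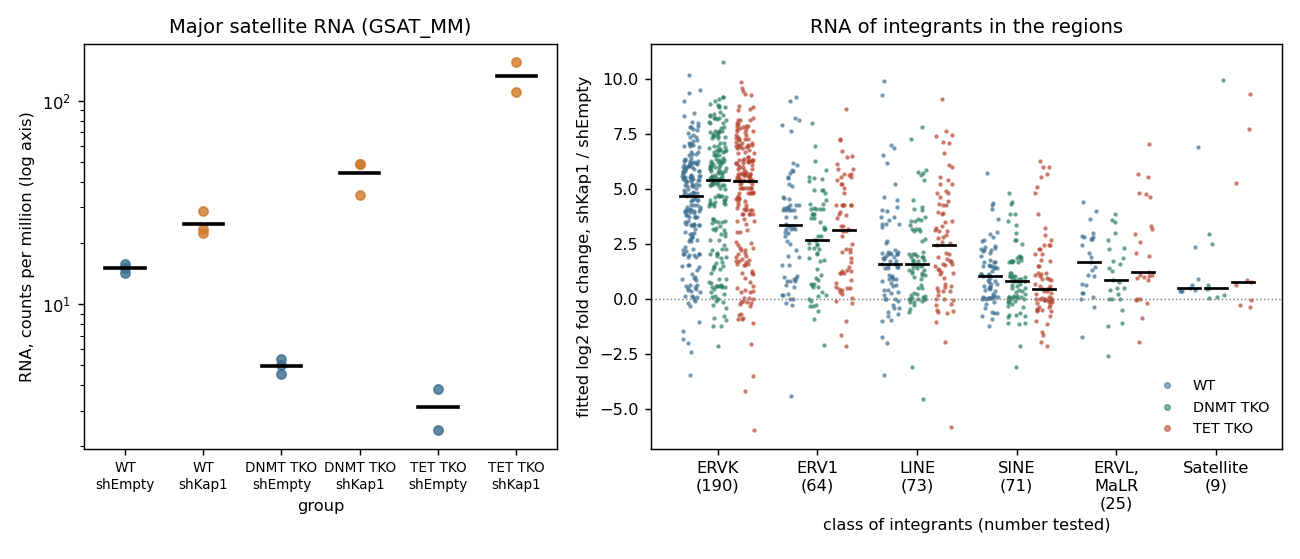
Left, CPM of major satellite RNA (log axis) in every library of the 6 groups, with lines at the means. Right, fitted log2 fold change of Kap1 knockdown (y axis) for the tested integrants of each class (x axis, number in brackets) in WT, DNMT TKO and TET TKO, with lines at the medians. Fitted values of integrants without reads in a group depend on the prior count. Major satellite lies highest in TET TKO shKap1, at 155 and 111, and ERVK has medians of 4.70, 5.43 and 5.39.

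Proviruses of the IAP family had few or no reads before knockdown. The IAP at chr11:23118583-23125674 had 0, 1 and 0 reads in WT shEmpty and 190, 287 and 272 in WT shKap1, and 2, 1 and 1 and then 398, 306 and 544 in DNMT TKO (log2 8.24, edgeR adjusted p = 1.6e-162). The IAP at chr16:94496513-94503566, in the gene Hlcs, had 0 reads in all WT shEmpty and TET TKO shEmpty libraries and was at least 96.8-fold higher in WT shKap1 (67, 86 and 85 reads) and at least 92.4-fold higher in TET TKO shKap1 (125 and 82 reads). Its region had a 5hmC difference of 1.12 (interval 0.71 to 1.53). Over the whole family IAPEz with IAPLTR1a LTRs rose by 6.51, 6.82 and 6.37 (SE 0.33, 0.34 and 0.40). Near-identical copies compete for unique reads, so the level of any single provirus is uncertain.

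ERV1 proviruses with RLTR6B LTRs rose by 4.89 in WT, 2.60 in DNMT TKO and 5.57 in TET TKO as a family (edgeR adjusted p = 2.9e-07, 2.6e-05 and 6.6e-07), and the rise was smaller in DNMT TKO than in WT by 2.29 (SE 0.45, adjusted p = 0.008). Without knockdown the family was higher in DNMT TKO than in WT (1.23, adjusted p = 0.021), a call that was lost by limma-voom (adjusted p = 0.12) and without DNMT TKO shEmpty replicate 2 (0.06) or 3 (0.071) or WT shEmpty replicate 1 (0.076) or 2 (0.079). A single copy at chr12:19681394-19690139 departed from this: it had 6, 9 and 23 reads in WT shEmpty and 111, 259 and 206 in WT shKap1 (4.20, adjusted p = 1.7e-67), 6 and 6 and then 482 and 365 in TET TKO (6.52, adjusted p = 6.5e-88), but only 1, 0 and 0 and then 3, 1 and 0 reads in DNMT TKO. MMERVK10C proviruses with RLTR10C LTRs rose by 4.97, 5.55 and 5.24, and L1Md_F2 by 0.88, below 2-fold, 1.20 and 1.34.

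In the longest region on chromosome 4, chr4:146835601-146904199 (68599 bases, led by no repeat class, 5hmC difference 0.56), integrants lay side by side with different behaviour. The IAPLTR2b copy at chr4:146839846-146841245 had 0 reads in each WT and DNMT TKO shEmpty library and was at least 155-fold higher in WT shKap1 (127, 140 and 115 reads) and at least 68.1-fold higher in DNMT TKO shKap1 (73, 54 and 62). The RLTR1B copy at chr4:146859640-146863163 had 0 reads in WT shEmpty and 56, 87 and 50 in WT shKap1, but 12, 7 and 12 reads in DNMT TKO shEmpty, at least 10.3-fold above WT, and rose there by 2.28 (edgeR adjusted p = 2.6e-11). The MMSAT4 copy at chr4:146886596-146889214 had the most reads of any integrant in the set, 74.3, 70.5 and 74.1 CPM in WT shEmpty and 106, 120 and 120 in WT shKap1, a difference of 0.66 that was not called.

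Without knockdown, 42 integrants were higher in DNMT TKO than in WT (9.57%, where 3.55% of all integrants were) and 27 lower (6.50% of all), and in TET TKO 33 were higher (7.52%, against 1.82%) and 3 lower (2.42% of all). Both comparisons share the WT shEmpty libraries. In DNMT TKO 15 of 64 ERV1 integrants (23.4%) and 19 of 190 ERVK integrants (10%) were higher, and 8 of 73 LINE integrants (11%) were lower. The RLTR45 provirus at chr6:128810106-128817011 had 0, 4 and 3 reads in WT shEmpty, 37, 59 and 69 in DNMT TKO shEmpty and 61 and 92 in TET TKO shEmpty, with log2 differences of 4.48 (edgeR adjusted p = 4.4e-16) and 4.83 (adjusted p = 9.3e-17), and the groups did not overlap. Another RLTR45 provirus at chr15:33761204-33766912 had 1.33, 3.70 and 5.34 CPM in WT shEmpty, 76.4, 127 and 114 in DNMT TKO and 104 and 93.3 in TET TKO. Its difference in TET TKO (4.80, adjusted p = 0.02) lost its call when any library of either group was left out (adjusted p = 0.058 to 0.086), and by limma-voom neither was called (adjusted p = 0.43 in DNMT TKO and 0.59 in TET TKO).

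5hmC was also set beside the RNA of the same regions. The 247 regions that held a tested integrant had a median 5hmC difference of 0.62, and the 325 without one had -0.11. These groups also differed in KAP1 overlap (212 of 247 and 105 of 325), in median CpG (19.4 and 8.19 per kb) and in median length (5399 and 1799 bases), whose part in the contrast was not tested, and whether an integrant was tested depends on its reads after knockdown too. Where an integrant rose in each of the 3 lines, not necessarily the same one (122 regions), the median difference was 0.85, with 51 regions at least 2-fold higher. Where integrants were tested and none rose (42 regions) it was 0.38. KAP1 overlapped 116 of the 122 and 27 of the 42, and median CpG was 19.4 and 14.4 per kb, and their part in the contrast was not tested.

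Genes gave fewer calls. Of 206 genes whose body overlaps a region, 126 were tested, 72 of which had no exon base inside a region and 29 at least 50%. In the WT knockdown 29 rose (23.0%, where 10.8% of all genes did) and 8 fell (6.54% of all), in DNMT TKO 32 rose (25.4%, against 10.1%) and 5 fell (2.42% of all), and in TET TKO 34 rose (27%, against 8.05%) and 5 fell (4.46% of all). Between DNMT TKO and WT without knockdown 12 were higher (9.52%, against 8.23%) and 8 lower (8.05% of all), and for TET TKO 12 were higher (9.52%, against 5.66%) and 6 lower (4.80% of all). Knockdown effects differed from WT at 10 genes in DNMT TKO (7.14% of all genes) and at 3 in TET TKO (4.21% of all). Among the 72 genes with no exon base inside a region 10, 14 and 10 rose and 7, 5 and 4 fell. Of the 29 with at least 50% inside, 9, 9 and 12 rose and 0 fell in each line. Of the 25 with some but under 50% inside, 10, 9 and 12 rose and 1, 0 and 1 fell. A larger part thus rose among genes with exon bases inside a region.

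Casp8, which encodes the initiator caspase of death receptor signalling, carries the IAP region chr1:58868401-58876799 in its body, outside the exons, and that region had a 5hmC difference of 1.05 (0.65 to 1.44). Casp8 had 2.55, 4.09 and 4.74 CPM in WT shEmpty and 42.0, 54.9 and 51.5 in WT shKap1 (3.67, SE 0.29, edgeR adjusted p = 3.8e-07), 5.03, 12.6 and 12.5 and then 35.2, 44.3 and 36.3 in DNMT TKO (1.92, SE 0.26, adjusted p = 9.4e-05), and 2.19 and 1.73 and then 32.8 and 30.9 in TET TKO (4.02, SE 0.39, adjusted p = 4.8e-06). Knockdown libraries lay above their controls in each line without overlap. Without knockdown Casp8 was higher in DNMT TKO than in WT (1.39, adjusted p = 0.0021).

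Mmp1b, a collagenase gene with the IAP region chr9:7371001-7375599 in its body (5hmC difference 0.98, 0.48 to 1.47), had 1, 0 and 0 reads in WT shEmpty and 13, 17 and 9 in WT shKap1, a ratio of 47.6 (interval 8.06 to 1930), and rose by 4.56 in DNMT TKO (edgeR adjusted p = 0.00023). BB287469, with an ETn region, rose by 2.16, 2.08 and 5.88 in WT, DNMT TKO and TET TKO (adjusted p = 0.0006, 0.0011 and 1.8e-05). Gm7120 lies almost wholly inside a region at the end of chromosome 13 and rose in WT (3.41, adjusted p = 6.5e-08) and TET TKO (5.83, adjusted p = 8.7e-09), whereas in DNMT TKO it had 0.508, 0.587 and 0.424 CPM in shEmpty and 1.54, 0.752 and 0.779 in shKap1 and was not called.

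Genes that fell included Zranb3, a DNA annealing helicase of replication fork restart, with 72.7, 66.4 and 62.9 CPM in WT shEmpty and 20.6, 17.7 and 19.8 in WT shKap1 (-1.80, SE 0.14, edgeR adjusted p = 6.2e-08), and it decreased by 2.17 on the log2 scale in TET TKO. In DNMT TKO it decreased by 1.14 (adjusted p = 1.2e-05), a change that was under 2-fold without shKap1 replicate 1. Sfxn2, a mitochondrial carrier gene, fell by 1.40, 1.25 and 1.30 on the log2 scale (adjusted p = 5.1e-07, 9.5e-07 and 5.2e-06), and without knockdown it was higher than in WT in DNMT TKO (1.26) and TET TKO (1.83). Tiam2, a Rac exchange factor gene whose body reaches the pericentromeric region chr17:3352601-3353399, fell by 3.28 in WT (adjusted p = 0.00063) and 1.89 in TET TKO (adjusted p = 0.0028). Its change in DNMT TKO, -1.22, had adjusted p = 0.019 and was not called without shEmpty replicate 1 (0.06), shKap1 replicate 2 (0.065) or shKap1 replicate 3 (0.06). Dock2, an exchange factor gene of blood cells, fell by 2.21 in WT (adjusted p = 0.011) and was higher in DNMT TKO than in WT without knockdown (2.84, adjusted p = 1.2e-05).

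Of 30 genes of H3K9 methylation, KRAB zinc finger silencing and pericentromeric heterochromatin, 3 rose (10%, where 10.8% of all genes did) and 2 fell (6.67%, against 6.54%) in the WT knockdown, close to the shares of all genes. In each of the other knockdowns 1 rose and 1 fell (3.33% each), where 10.1% of all genes rose and 2.42% fell in DNMT TKO and 8.05% rose and 4.46% fell in TET TKO. Trim28 is among those that fell. Suv39h1, a methyltransferase of pericentromeric H3K9me3, had 15.7, 19.8 and 22.1 CPM in WT shEmpty and 48.2, 42.4 and 43.4 in WT shKap1 (1.21, edgeR adjusted p = 1.1e-07). Its differences in DNMT TKO (0.55, edgeR adjusted p = 0.001) and TET TKO (0.89, adjusted p = 0.00012) were below the 2-fold minimum, and the knockdown effect minus that in WT was -0.66 (adjusted p = 0.0078) in DNMT TKO and -0.32 (adjusted p = 0.31) in TET TKO. Suv39h2, its partner enzyme, had a mean of 56.5 CPM in WT shEmpty and 33.9 in WT shKap1, a difference of -0.73 below the 2-fold minimum (edgeR adjusted p = 2.1e-08), with -0.56 in DNMT TKO (adjusted p = 1.3e-06) and -0.05 in TET TKO (adjusted p = 0.66). Pax9, a transcription factor reported to bind major satellite, rose in all 3 knockdowns (2.40, 1.32 and 1.55), and Pax3 rose in WT (2.50, adjusted p = 0.00011). The list's median changes were -0.15, -0.17 and -0.06, and those of all genes -0.01, 0.02 and -0.01.

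The cells carried embryonic stem cell markers in every group, with mean CPM of 613 to 838 for Pou5f1 and 648 to 1086 for Nanog. Of 20 markers of stem cells and of other cell types that were tested, 4 rose and 5 fell in the WT knockdown (20% and 25%, where 10.8% and 6.54% of all genes did), 3 and 3 in DNMT TKO (15% each, against 10.1% and 2.42%), and 1 and 2 in TET TKO (5% and 10%, against 8.05% and 4.46%). Among stem cell genes, Sox2 fell from a mean of 329 to 130 CPM (-1.34, edgeR adjusted p = 9.1e-10) and Klf4 from 326 to 130 (-1.32, adjusted p = 6.4e-06) in the WT knockdown. Differences of Nanog (-0.75), Esrrb (-0.87) and Tfcp2l1 (-0.99) there were below the 2-fold minimum (edgeR adjusted p = 1.9e-05, 1.8e-09 and 2.3e-09). Zfp42 fell from a mean of 654 to 228 CPM in the DNMT TKO knockdown (-1.52, edgeR adjusted p = 1.3e-10). Among genes of other lineages, means of Gata4, Pax6 and Col3a1 were at most 9.25, 8.49 and 0.188 CPM in any group, but Eomes had a mean of 20.2 in WT shEmpty and 17.4 in TET TKO shEmpty, and T had 9.93 in DNMT TKO shEmpty. Genes of other lineages moved in both directions. Pax6 rose in all 3 knockdowns, Sox17 in WT (2.21, edgeR adjusted p = 9.4e-05) and DNMT TKO (1.61, adjusted p = 0.00099), and Thy1 in WT (1.26, adjusted p = 0.00051). T fell in WT (-1.04, edgeR adjusted p = 0.0043) and DNMT TKO (-2.29, adjusted p = 9.5e-07), Cdx2 in DNMT TKO (-2.47, adjusted p = 5.4e-08) and Mixl1 in TET TKO (-1.02, adjusted p = 0.035). Col1a1 fell in WT (-1.29, edgeR adjusted p = 0.00059) and TET TKO (-1.09, adjusted p = 0.0081) and rose in DNMT TKO (1.08, adjusted p = 0.00075). On few reads, Col3a1 rose in WT from 1, 0 and 0 to 4, 2 and 5 reads and Elf5 fell from 4, 6 and 7 to 1, 0 and 0. Without knockdown, 6 of the 20 markers were higher in DNMT TKO than in WT (30%, where 8.23% of all genes were) and 1 was lower (5%, against 8.05%). Higher were Zfp42 (2.34), Dppa3 (2.61), Cdx2 (1.94), T (1.78), Thy1 (2.01) and Mixl1 (1.38), and Eomes was lower (-2.19), with edgeR adjusted p of at most 0.0013. In TET TKO 3 were higher (15%, against 5.66%), Thy1 (1.88), Sox17 (1.41) and Mixl1 (1.30), and 2 were lower (10%, against 4.80%), T (-1.55) and Cdx2 (-1.51), with edgeR adjusted p of at most 0.018. The part of these shifts in the values above was not tested.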

How the data were processed

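Per the labels and the study's methods, the authors mapped hMeDIP reads to mm9 with Bowtie2 and counted reads per region with bedtools multicov, and mapped RNA reads (polyA-selected, stranded) with HISAT2, keeping unique reads, which were counted per gene with featureCounts and per merged repeat integrant with bedtools multicov. These deposited counts are not normalized. The deposited peaks of H3K4me3 and H3K27me3, called by the authors per replicate against input, carry a score that served only to split peaks at its median. The rule that separated KAP1-independent from KAP1-dependent regions is not given in the sources used here. Tool versions that the submitters' processing notes name include Bowtie2 2.2.1, HISAT2 2.0.1 and bedtools 2.25.

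5hmC over input was the log2 of (count + 1) over the library's reads in all 6 region sets, 5hmC minus input, for regions with at least 10 reads over both inputs. Only replicate 1 was used: for the 4 libraries of replicate 2 the labels and the deposited names disagree, and they were left unassigned. Counting intervals are Poisson (95%) and cover counting error only. Genes, integrants and families with at least 16 reads over the 16 libraries were fitted over all 6 groups with edgeR 4.0.16 (R 4.3.3), robust quasi-likelihood, TMM factors from genes, and Benjamini-Hochberg adjustment over all features tested. A call needed adjusted p under 0.05 and at least 2-fold. There were 5 comparisons, and the differences between knockdown effects were added after the data were seen. A fold against a group without reads was set against 3 counts over the group, and groups with 1 to 3 reads are given as a ratio with its counting interval. The fits were tested on simulated data.

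Regions overlap a feature from 1 shared base, are pericentromeric within 1 Mb of the first assembled base, and are named by the repeat class covering most of their bases (at least 20%). Sequences were read from the mm9 reference. One sequence is not reported here. Regions named were the 10 with most input reads, the 5 highest and 5 lowest in shEmpty and the 5 largest differences each way among those with at least 30 input reads, up to 10 pericentromeric ones and the 5 longest. Genes named were called and among up to 6 per comparison and direction, or the 10 with most reads, and integrants up to 5 among those with at least 50 reads, or the 5 with most. Families were the satellites and the 5 covering most bases. A selection of these is printed. The members and lists were chosen with earlier results of these data known.

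Same-numbered libraries of the labels were checked for pairing by the correlation of their deviations from group means over genes. It was 0.274, 0.118 and 0.121 between WT shEmpty and WT shKap1 and 0.317, 0.135 and 0.148 between WT shEmpty and DNMT TKO shEmpty, but 0.33, 0.174 and 0.078 within DNMT TKO and -0.004 and -0.004 within TET TKO. Alternatives were other totals, filters, normalizations and tests (DESeq2 1.42.0, limma 3.58.1), each library left out, and the replicate number as a block.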

Additional observations from a re-analysis of the deposited data

Results flagged for a closer look

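The results below are those named families, genes and integrants whose knockdown effect in a knockout line differed from that in WT. The difference was at least 2-fold and passed edgeR's test of the difference itself. They are not every gene or integrant of the regions that differed. All values are log2 differences, knockout line minus WT, with edgeR adjusted p. Larger and smaller refer to the sign of this difference, so a larger effect can also be a weaker fall. Trim28 fell less in DNMT TKO than in WT (a difference of 1.28, adjusted p = 0.0008), whose part in the DNMT TKO differences was not tested, whereas in TET TKO that difference was -0.06 (adjusted p = 0.93). Among the cell type markers the effect in DNMT TKO minus that in WT was -1.17 for Zfp42 (adjusted p = 8.4e-07), -1.25 for T (adjusted p = 0.023), -2.37 for Cdx2 (adjusted p = 2.3e-05) and 2.37 for Col1a1 (adjusted p = 8.7e-05), and in TET TKO it was -1.3 for Thy1 (adjusted p = 0.029).

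In DNMT TKO the effect was larger than in WT for the major satellite family GSAT_MM (2.43, adjusted p = 1e-05), its array on chromosome 9 (2.03, adjusted p = 9.7e-07) and the gene Gm16869 inside that array (1.73, adjusted p = 0.008). By sign it was also larger for Gabrg3 (3.25, adjusted p = 0.00019), Muc3 (4.63, adjusted p = 0.049) and the ETnERV provirus at chr10:82922700-82928646 (2.8, adjusted p = 0.005). It was smaller for the RLTR6B provirus family (-2.29, adjusted p = 0.008), Casp8 (-1.75, adjusted p = 0.0071), Gm7120 (-2.43, adjusted p = 0.0028) and Ccdc11 (-3.59, adjusted p = 0.00044). Among integrants it was smaller for the RLTR45 provirus at chr6:128810106-128817011 (-2.69, adjusted p = 0.00012), the RLTR1B copy at chr4:146859640-146863163 (-6.92, adjusted p = 3.2e-10) and the LTRIS2 copy at chr16:50994146-50994677 (-6.1, adjusted p = 0.015). The knockdown change of that LTRIS2 copy within DNMT TKO lost its call by DESeq2 (adjusted p = 0.34), by limma-voom (0.3), with only the groups compared (0.15) and without DNMT TKO shEmpty replicate 2 (-0.234, adjusted p = 0.95). The call of Gabrg3 in the DNMT TKO knockdown was lost without shKap1 replicate 2 (adjusted p = 0.05), and that of Muc3 in the WT knockdown without shKap1 replicate 2 (0.054).

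In TET TKO the effect was larger than in WT for GSAT_MM (4.69, adjusted p = 1.2e-07), the chromosome 9 array (4.38, adjusted p = 9.8e-26), Gm16869 (4.26, adjusted p = 3.3e-05), BB287469 (3.73, adjusted p = 0.011) and Gm7120 (2.42, adjusted p = 0.01). It was also larger for the RLTR6B copy at chr12:19681394-19690139 (2.32, adjusted p = 4.6e-05) and the L1Md_T copy at chr6:128630207-128637687 (1.91, adjusted p = 0.017), and smaller for the RLTR45 provirus on chromosome 6 (-3.56, adjusted p = 9e-07) and the RLTR1B copy on chromosome 4 (-5.37, adjusted p = 0.014). Where a group had 0 reads, as the RLTR1B copy did in WT shEmpty, the fitted size depends on the prior count and is no bound. The RLTR45 provirus had no call for its knockdown in TET TKO when only the groups compared were fitted (adjusted p = 0.15).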

How the results depend on the processing

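The set's median 5hmC over input depended on the total. Without the largest array it was -0.336 in shEmpty and the difference was -0.186. With H3K4me3 regions as the total the values were 0.643 in shEmpty, 0.765 in shKap1 and -0.206 for the difference, and with KAP1-dependent regions -0.705 in shKap1 and -0.462 for the difference. Replicate 2, unassigned, gave 0.086, -0.031 and a difference of -0.107 when read by its labels, and -0.881, -0.515 and 0.107 when read by the deposited names. The share of the largest array was 83.5% (5hmC shEmpty) and 78.6% (5hmC shKap1) of the reads in the set and 42.9% and 29.3% over sets that do not overlap. KAP1 overlapped 209 regions at 25% reciprocal overlap, and pericentromeric regions numbered 17 within 100 kb and 59 within 5 Mb. Repeats covered 68.7% without simple sequence and 71.0% without the largest array. H3K4me3 peaks above the median score overlapped 13 regions, and H3K27me3 peaks of replicate 1 alone overlapped 142 and of replicate 2 alone 143.

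With adjusted p alone, without the 2-fold minimum, 64 genes were called in the WT knockdown, 41 between DNMT TKO and WT and 36 between TET TKO and WT. Counting only genes with at least 50% of their exon bases inside a region left 9, 9 and 12 in the WT, DNMT TKO and TET TKO knockdowns and 3 and 4 between the knockout lines and WT. Leaving out each library gave 30 to 40, 31 to 33 and 30 to 35 genes in the 3 knockdowns and 18 to 23 and 14 to 19 between lines. For integrants it gave 184 to 216, 194 to 207 and 187 to 205 in the knockdowns and 59 to 68 and 25 to 33 between lines. Calls of the reported families, added over the 3 knockdowns, were 16 to 18. With the replicate block 37, 41 and 43 genes and 214, 216 and 230 integrants were called in the knockdowns, and 20 and 19 genes and 69 and 35 integrants between lines. The reported families had 17 calls over the 3 knockdowns with the block. The block ended the call of the RLTR1B copy at chr4:146859640-146863163 between TET TKO and WT (edgeR adjusted p = 0.052) and of 1 L1_Mur2 copy between DNMT TKO and WT (adjusted p = 0.052), and of no other named item. Counting each result under each alternative, 185 summary values stayed close to their main value, 25 moved and 7 changed sign, all of the last 2 kinds given above. Close meant a count within a set ratio of the main count, or a median or share within the main 95% interval. Direction and side of the call threshold were kept by 2428 values of single items. A call was lost in 141 such cases, which belong to 46 results, and 95 of the cases left out a library. The cause was not tested. With 1 assigned hMeDIP library per condition, spread between replicates of 5hmC is unknown.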

Other observations

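The 4 hMeDIP libraries of replicate 2 enter no comparison of the report, since their labels and deposited names disagree. The library labelled input shEmpty, whose deposited name reads 5hmC shEmpty, had 10261271 reads over the region sets, of which 50.3% lay in KAP1-independent H3K9me3 regions, 42.7% in the chromosome 9 array and 4.00% in regions with telomere repeat. The library labelled input shKap1, by its deposited name input shEmpty, had 5849673 reads, with 26.7%, 20.8% and 0.859% in the same order. The library labelled 5hmC shEmpty, by its deposited name 5hmC shKap1, had 12571208 reads, with 31.8%, 25.4% and 2.92%. The library labelled 5hmC shKap1, by its deposited name input shKap1, had 6213882 reads, with 29.7%, 23.7% and 0.971%.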
